A study of Mus musculus with 4 samples.

Results

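The Notch pathway was followed through 10 genes in cells sorted as pro-B cells from control mice and from mice with floxed alleles of Tnpo3, the gene of the nuclear import receptor transportin 3. The genes were taken by symbol from a table of raw read counts for 24411 genes: the receptors Notch1, Notch2, Notch3 and Notch4, the receptor-cutting protease Adam10, the DNA-binding factor Rbpj, and Hes1, Heyl, Dtx1 and Nrarp, which respond to the pathway. All 10 were found, and all 10 were among the 13507 genes that passed the filter on low counts. The cells were B220+CD43+HSA+ bone marrow cells of C57BL/6 mice, isolated by sorting, where HSA is the heat-stable antigen CD24. The 2 controls (mice 55 and 69) were Tnpo3+/+ mb1Cre and the 2 knockouts (mice 51 and 63) were Tnpo3fl/fl mb1Cre. The recombinase mb1Cre, whose expression is driven by Cd79a and so falls in the B lineage, was thus shared by all 4 mice. Ages were not given in the labels, and each library came from its own mouse. Paired values are given in the order 55 and 69 for the controls and 51 and 63 for the knockouts.

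Notch receptors sit on the cell surface and are cut when a ligand on a neighbouring cell binds them, first by ADAM10 and then within the membrane by gamma-secretase. The freed intracellular part enters the nucleus and joins RBPJ, which turns genes such as Hes1, Heyl, Dtx1 and Nrarp on. In blood formation, signals through NOTCH1 direct early progenitors to the T lineage at the expense of the B lineage, and NOTCH2 acts in later B cells and in dendritic cells.

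Libraries held 26211372 to 40647384 counts. Levels are given as CPM, that is, counts per 1000000 of an adjusted library total, and a single count was worth 0.0248 to 0.0376 CPM. Intervals on counts cover counting error only, since the labels describe no molecular identifiers. Tnpo3 was at 159 and 148 CPM in the controls against 79.7 and 68.8 CPM in the knockouts. Its log2 fold change was -1.05 ± 0.14 (SE; edgeR's quasi-likelihood test, adjusted p = 0.0108), a call lost when knockout 63 was left out (0.0603). Marker genes were used to check the label of the sorted cells. Of 12 B-lineage markers, 9 fell and 0 rose. Their summed level was 10660 and 11120 CPM in the controls and 3046 and 2601 CPM in the knockouts. Of 14 dendritic cell markers, 11 rose and 0 fell, with sums of 3544 and 1675 CPM in the controls and of 10120 and 13990 CPM in the knockouts. T cell markers (7 of 13 higher) summed to 105 and 117 CPM in the controls and to 1105 and 877 CPM in the knockouts. Cd4 alone was at 590 and 516 CPM in the knockouts. Of the 13, 10 were higher in knockout 51 than in knockout 63. Cd3d, Cd3e and Cd3g were at 14.9, 5.99 and 13.6 CPM in knockout 51 and at 1.16, 0.631 and 2.22 CPM in knockout 63. NK and innate lymphoid markers (8 of 11 higher) summed to 41.9 and 34.95 CPM in the controls and to 1067 and 278 CPM in the knockouts. Neutrophil and monocyte markers (11 of 12 lower) had sums of 4738 and 3735 CPM in the controls and of 247 and 71.0 CPM in the knockouts. In bulk samples fewer cells of a type and less RNA per cell cannot be told apart, and the part of these marker shifts in the results on Notch genes was not tested. Mice 55 and 63 were female and mice 69 and 51 male by Xist and Ddx3y, so each genotype held 1 of each sex.

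Of the 10 genes, 2 rose (Notch1 and Notch3), 2 fell (Heyl and Dtx1) and 6 did not pass an adjusted p of 0.05. Among all genes tested, 22.2% passed, 11.3% higher and 10.9% lower in the knockout. The share of the 10 that passed cannot be read as particular to them. The median log2 fold change of the 10 genes was -0.065, against -0.020 over all genes tested. The same 4 genes passed in all 12 alternative analyses. In 7 of the 10 genes the groups did not overlap, as was the case for 67.5% of all genes tested.

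**Figure D1:**
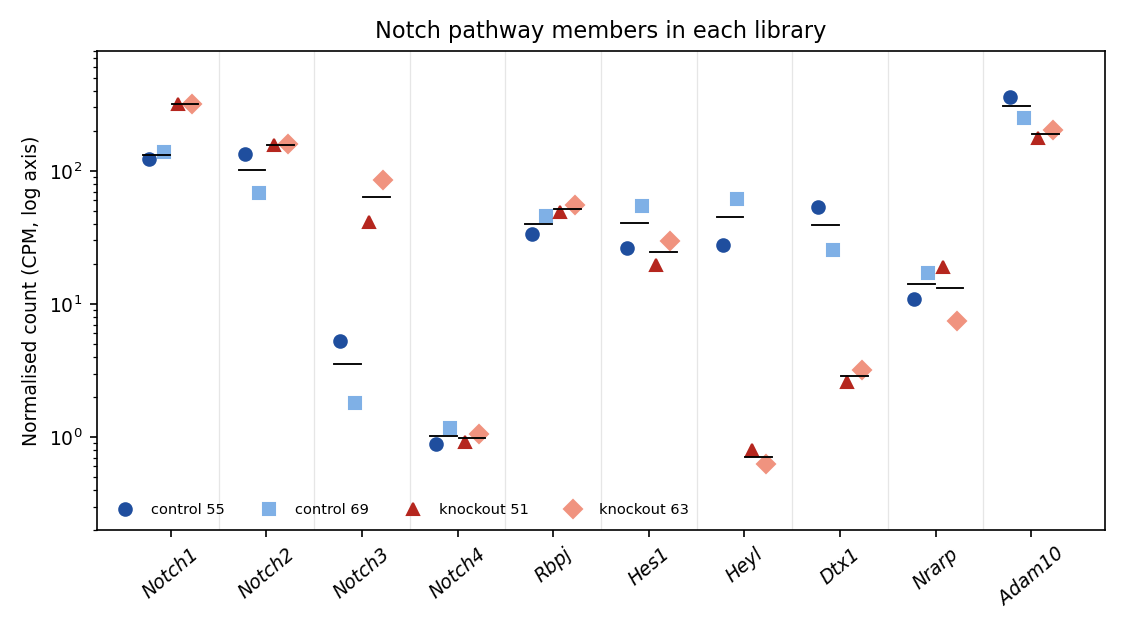
Normalised counts (CPM, log axis) of the 10 Notch pathway genes, with a point for each library and a black line at the mean of each genotype. Notch1 and Notch3 lie higher in both knockouts, and Heyl (27.7 and 61.7 CPM against 0.793 and 0.631 CPM) and Dtx1 lie far lower.

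**Figure D2:**
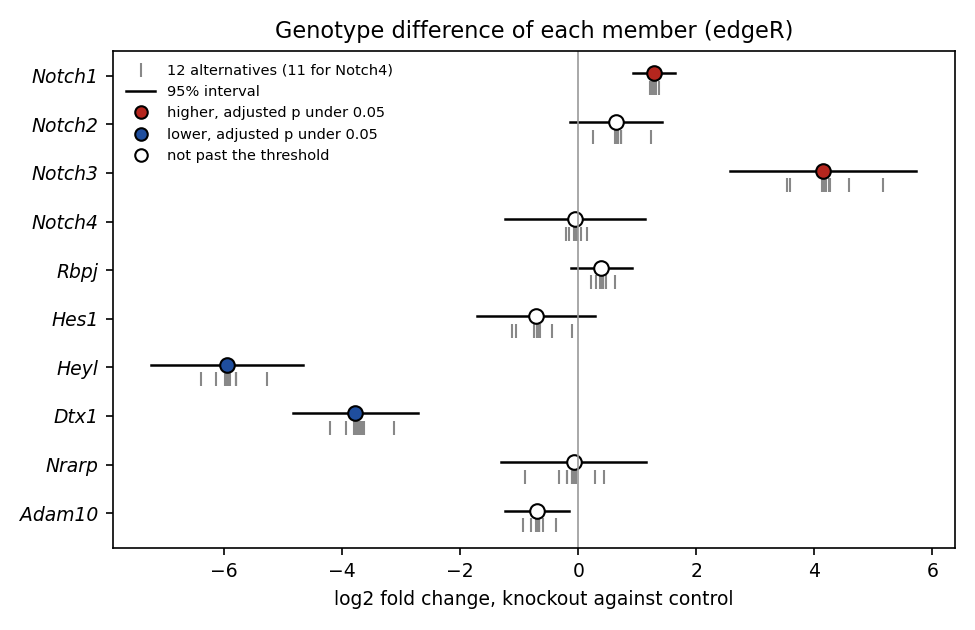
Log2 fold change of knockout against control for each gene, from edgeR, with its 95% interval as a black line and the values of the alternative analyses as grey ticks below it. Filled points passed an adjusted p of 0.05, and the intervals of the 4 filled genes lie wholly on one side of 0.

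Notch1 encodes the receptor that commits progenitors to the T lineage (GRCm38 chromosome 2, 26457903 to 26516663, minus strand). It was at 123 and 140 CPM in the controls against 319 and 318 CPM in the knockouts. Both knockouts were above both controls, and the levels within each genotype lay close together. The fitted difference was 2.43-fold, a log2 fold change of 1.28 ± 0.14 (SE, 95% interval 0.92 to 1.63, n = 2 mice per genotype; edgeR adjusted p = 0.00746). The alternatives gave log2 fold changes from 1.22 to 1.37. Within females the log2 ratio was 1.37, and within males it was 1.19. Exons of the antisense genes 0610009E02Rik and Gm13568 overlap those of Notch1 in the annotation. The strand setting of the counting is not given in the sources used here. Such overlaps were not limited to Notch1. The antisense gene Gm17276 shares 488 exon bases with Notch3, and Gm42820, on the same strand, shares 541 with Notch2. LTO1 shares 1100 with Ccnd1.

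Notch3, a receptor gene best known from vascular smooth muscle and also active in early T cells, showed the largest rise of the 10 (chromosome 17, 32120820 to 32166852, minus strand). It was at 5.29 and 1.80 CPM in the controls against 41.4 and 85.9 CPM in the knockouts. The groups were far apart, but each spread within itself, with control 55 at 2.93 times control 69. The log2 fold change was 4.15 ± 0.63 (SE, 95% interval 2.57 to 5.73; edgeR adjusted p = 0.0139), or 17.8-fold with an interval of 5.94 to 53.2. It ranged from 3.54 to 5.17 over the alternatives. Of 13507 genes tested, 170, Notch3 included, had a log2 fold change at least as high. Siglech, a receptor gene of plasmacytoid dendritic cells, was at 194 and 28.3 CPM in the controls against 1262 and 2305 CPM in the knockouts. Of the 14 dendritic cell markers, 11 rose and 3 did not pass. Among these 3, Spib was at 1517 and 691 CPM in the controls against 633 and 950 CPM in the knockouts. The part of dendritic cells in the rise of Notch3 was not tested.

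The 250 bases before the RefSeq start of the 2 receptor genes that rose are shown because both of these genes passed. Capitals mark GC boxes, GGGCGG on either strand, overlaps included. The windows are chr2:26503823-26504072 for Notch1 and chr17:32166891-32167140 for Notch3, on GRCm38.p6, and both are written 5′ to 3′ on the minus strand on which the genes lie. The Notch1 window lies in an intron of a longer annotated Notch1 transcript, and the Notch3 window lies before the annotated gene.
Notch1: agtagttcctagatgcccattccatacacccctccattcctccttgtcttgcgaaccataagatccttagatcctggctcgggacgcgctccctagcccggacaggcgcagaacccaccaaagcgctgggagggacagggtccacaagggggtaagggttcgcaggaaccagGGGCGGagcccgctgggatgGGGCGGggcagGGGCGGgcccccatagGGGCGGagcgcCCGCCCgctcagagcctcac
Notch3: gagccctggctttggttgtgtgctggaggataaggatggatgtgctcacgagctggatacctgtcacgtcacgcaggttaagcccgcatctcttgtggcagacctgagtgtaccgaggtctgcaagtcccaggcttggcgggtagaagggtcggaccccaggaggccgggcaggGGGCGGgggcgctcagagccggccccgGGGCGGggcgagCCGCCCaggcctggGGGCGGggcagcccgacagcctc
The Notch1 window held 5 GC boxes and the Notch3 window 4, and 32.7% of 32851 promoter windows of this length held at least 1. GC boxes were not particular to the genes that rose, with 5 before Notch2, 3 before Adam10, 3 before Dtx1 and 2 before Nrarp. The windows of Notch4 and Rbpj held 0. G and C made up 66.0% of the Notch1 window and 68.8% of the Notch3 window, against a median of 52.4% over all windows. Neither the Notch1 nor the Notch3 window held the RBPJ core motif TGGGAA on either strand, which 21.6% of windows held. Both also lacked the E-box CANNTG, which 66.2% held. The table of RefSeq promoters matched 8 of the 10 genes, all but Hes1 and Heyl. Of those 8, Rbpj alone held TGGGAA, with 2 matches before its upstream start. A match or its lack describes these letters only.

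Notch2, a receptor gene with roles in marginal zone B cells and dendritic cells, was at 133 and 68.5 CPM in the controls against 156 and 159 CPM in the knockouts (chromosome 3, 98013527 to 98150361). Both knockouts were above both controls, as for 33.0% of all genes tested, but control 55 came close to them. The log2 fold change was 0.64 ± 0.31 (SE, 95% interval -0.14 to 1.43) and did not pass (edgeR adjusted p = 0.194). Without control 55 it was 1.23 and passed (adjusted p = 0.00285), and without control 69 it was 0.24. Within females the log2 ratio was 0.26, and within males it was 1.19. Notch4, best known from endothelium, was near the limit of these libraries, with 29 and 31 counts in the controls and 37 and 32 in the knockouts (chromosome 17, 34564268 to 34588503). These correspond to 0.886 and 1.17 CPM, and to 0.916 and 1.06 CPM. The exact Poisson 95% intervals of the 4 libraries overlapped, reaching from 0.594 to 1.65 CPM in all, and the log2 fold change of -0.051 had a 95% interval from -1.24 to 1.14, so changes within it were not detectable with these libraries. Of 10 tested markers of stroma and endothelium, 3 rose and 2 fell, with sums of 273 and 216 CPM in the controls and of 440 and 454 CPM in the knockouts. Of those of endothelium, Cdh5 (log2 fold change 4.50) and Kdr (3.55) rose, Vcam1 fell (-3.35), Pecam1 (-0.024) and Emcn (-1.93) did not pass, and Tek, at 0.050 to 0.150 CPM, was not tested.

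For comparison between genes, levels were divided by the length of the annotated exons. This length joins the exons of all annotated transcripts, 14.23 kilobases for Notch1 and 10.78 for Notch2. The lengths of the transcripts present in these cells were not measured. The order of genes and the receptor shares below depend on these annotated lengths. In the controls Notch1 was at 9.22 ± 0.829 CPM per kilobase and Notch2 at 9.35 ± 4.24 (SD, n = 2), which did not differ beyond their spread. In the knockouts Notch1, at 22.4 ± 0.00919 CPM per kilobase, was above Notch2 at 14.6 ± 0.21. Notch3 went from 0.438 ± 0.305 to 7.87 ± 3.89 CPM per kilobase. It made up 3.01% and 1.35% of the receptor signal per kilobase in the controls, and 12.2% and 22.2% in the knockouts. The sum over the 4 receptors was 21.7 and 16.5 CPM per kilobase in the controls and 42.1 and 47.9 in the knockouts. Across all 10 genes, Adam10 was highest in both genotypes (62.4 ± 15.98 and 38.6 ± 3.97 CPM per kilobase). In the controls Hes1 came next at 19.9 ± 9.71, then Notch2, Notch1, Heyl, Dtx1 and Nrarp, in which each gene overlapped the next, then Rbpj, Notch3 and Notch4. In the knockouts the order after Adam10 was Notch1, Notch2, Hes1, Notch3, Nrarp and Rbpj, with overlap between neighbours from Notch2 to Rbpj, and Dtx1, Heyl and Notch4 were the lowest, the last pair overlapping at 0.139 ± 0.0224 and 0.123 ± 0.0128.

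**Figure D3:**
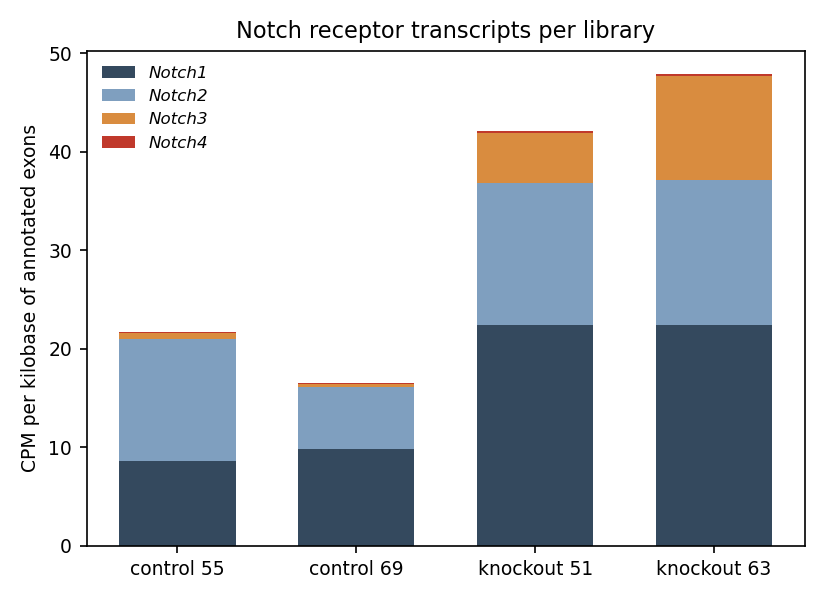
Stacked bars of the 4 Notch receptor transcripts in each library, in CPM per kilobase of annotated exons, with a bar for each library and no error bar. The bars of both knockouts (42.1 and 47.9) are higher than those of both controls (21.7 and 16.5), and Notch3 is a visible layer in the knockouts.

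Rbpj, the DNA-binding factor through which all 4 receptors act, did not pass the test (chromosome 5, 53466152 to 53657362). It was at 33.7 and 45.7 CPM in the controls against 49.0 and 55.1 CPM in the knockouts. The knockouts were above the controls, but the gap was smaller than that between the controls. Its log2 fold change was 0.39 ± 0.20 (SE, 95% interval -0.12 to 0.90; edgeR adjusted p = 0.22), and it did not pass in any alternative (lowest adjusted p = 0.0601). Adam10, whose product makes the first cut of a bound receptor, was at 362 and 251 CPM in the controls against 176 and 203 CPM in the knockouts (chromosome 9, 70678997 to 70780229). Both knockouts were below both controls, as for 34.6% of all genes tested. The log2 fold change was -0.69 ± 0.22 (SE, 95% interval -1.24 to -0.15) with an edgeR adjusted p of 0.075. It passed with DESeq2 (0.0439), with sex as a block (0.0154) and without control 69 (0.00959), and without control 55 its log2 fold change was -0.37.

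Of the 4 genes that respond to Notch, 2 fell and 2 did not pass. Heyl, a repressor of the HES and HEY family (chromosome 4, 123233556 to 123249875), fell the furthest of the 10 genes. It had 907 and 1641 counts in the controls but 32 and 19 in the knockouts, which are 27.7 and 61.7 CPM against 0.793 and 0.631 CPM. The knockouts lay close together and far below either control, and the controls differed by more than counting error, with exact Poisson 95% intervals of 26.0 to 29.6 and 58.7 to 64.7 CPM. The log2 fold change was -5.95 ± 0.51 (SE, 95% interval -7.24 to -4.67; edgeR adjusted p = 0.00521). It stayed between -6.39 and -5.27 in the alternatives. Of the 13507 genes tested, 33, Heyl included, had a log2 fold change as low or lower.

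Dtx1 encodes a ubiquitin ligase of the Deltex family that binds Notch receptors, and it is a target of the pathway in lymphocytes (chromosome 5, 120680202 to 120711927, minus strand). It was at 53.2 and 25.6 CPM in the controls against 2.58 and 3.19 CPM in the knockouts. Both knockouts were well below both controls, and control 55 stood at 2.08 times control 69. The log2 fold change was -3.78 ± 0.42 (SE, 95% interval -4.84 to -2.71; edgeR adjusted p = 0.00753), or 13.7-fold lower, and ranged from -4.21 to -3.12 in the alternatives. Of 9 markers of later B cells, a list chosen after the values were seen, 7 fell and 0 rose. The 9 summed to 3159 and 1283 CPM in the controls and to 1869 and 2214 CPM in the knockouts. Most of each knockout sum was Cd74, which did not pass, at 1717 and 1990 CPM (1595 and 727 CPM in the controls). Ms4a1, which encodes CD20, was at 630 and 172 CPM in the controls against 4.58 and 30.0 CPM in the knockouts.

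Hes1, the classical direct target, encodes a repressor of lineage genes (chromosome 16, 30064384 to 30067796). It was at 26.5 and 54.5 CPM in the controls against 19.5 and 29.7 CPM in the knockouts. The groups overlapped, since knockout 63 was above control 55. The log2 fold change was -0.72 ± 0.40 (SE, 95% interval -1.71 to 0.28; edgeR adjusted p = 0.245), it was -1.12 and passed without control 55 (adjusted p = 0.0275), and it was -0.11 without control 69. Nrarp, a small ankyrin repeat protein that the pathway induces and that dampens it, was at 10.9 and 17.1 CPM in the controls against 19.0 and 7.47 CPM in the knockouts (chromosome 2, 25180758 to 25183339). The knockouts enclosed the controls. Its log2 fold change was -0.08 ± 0.49 (SE, 95% interval -1.31 to 1.15; edgeR adjusted p = 0.923), which turned to 0.44 without knockout 63 and to 0.28 without control 69. Most of the Nrarp exons overlap an antisense gene, Gm38287. Relative to Hes1 per kilobase, Heyl was at a ratio of 0.416 and 0.451 in the controls and of 0.0162 and 0.00845 in the knockouts, lower in both knockouts than in either control.

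The controls themselves differed in these genes in both directions. Notch3, Dtx1, Notch2 and Adam10 were higher in control 55 than in control 69, by 2.93, 2.08, 1.94 and 1.44 times. Heyl, Hes1 and Nrarp were lower there, at 0.450, 0.487 and 0.638 of control 69. All 9 later B cell markers and 13 of 14 dendritic cell markers were also higher in control 55. The later B cell list was chosen after the values were seen, so its direction is no independent comparison. The surrogate light chain genes Vpreb1 and Igll1, which mark early B precursors, were lower in control 55 (260 and 326 CPM) than in control 69 (792 and 990 CPM). Control 55 was female and control 69 male, so sex, cell composition and any other difference between these mice cannot be told apart.

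**Figure D4:**
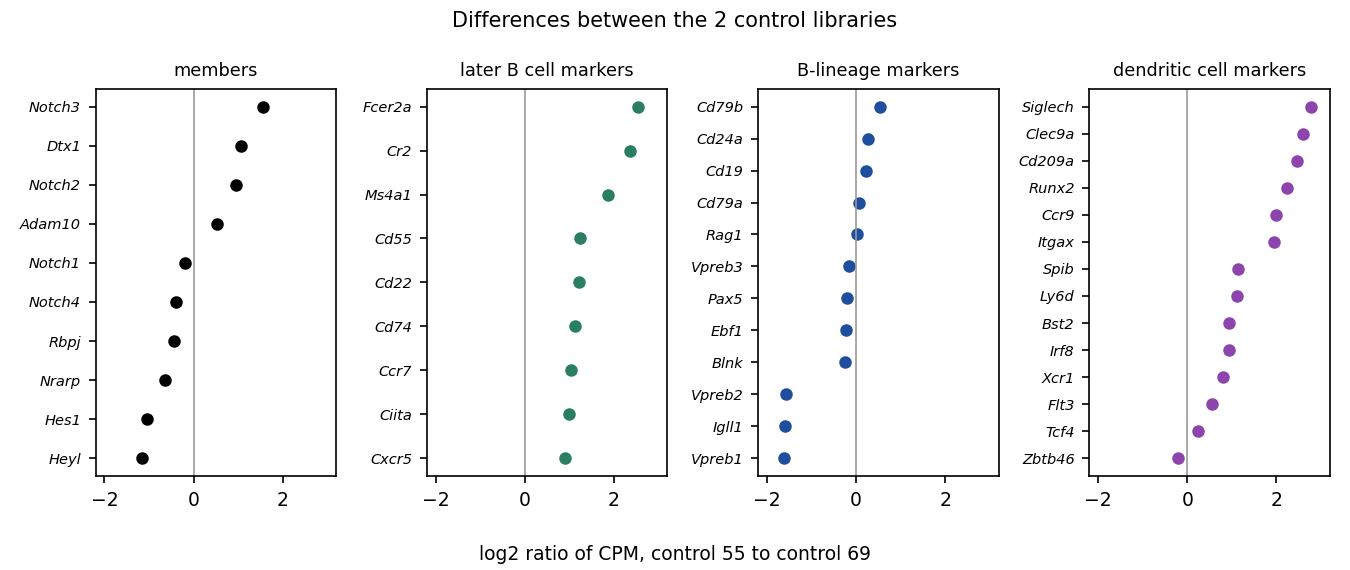
Log2 ratio of CPM between control 55 and control 69 for the 10 Notch genes and 3 marker lists, with 1 point for each gene and no replicates. Notch3, Dtx1 and Notch2 lie on the side of the later B cell and dendritic cell markers, and Heyl and Hes1 on the side of Vpreb1 and Igll1. The later B cell list was chosen after the values were seen.

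The remaining parts of the pathway were read from 64 further genes listed by role, of which 61 were tested. Of these, 8 rose, 11 fell and 42 did not pass (13.1% higher and 18.0% lower, beside 11.3% and 10.9% of all genes), with a median log2 fold change of 0.08 against -0.020 over all genes. Without knockout 51, 3 rose and 3 fell, and without knockout 63, 5 rose and 4 fell. Calls over all genes dropped as well, from 1524 higher and 1468 lower to 904 and 712 without knockout 51 and to 747 and 530 without knockout 63. Dtx4, Ccnd1, Pax5 and Ebf1 were the 4 of these 19 that passed in all alternatives.

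Among the ligands, which sit on neighbouring cells, 1 of 4 tested rose and 0 fell, with a median of 1.31 that was 2.36 under a stricter filter on low counts and 2.72 in the limma fit to the authors' normalized values. Dll4, the ligand that drives T lineage commitment in the thymus, was at 2.35 and 0.451 CPM in the controls and at 11.1 and 11.2 CPM in the knockouts (log2 fold change 2.97 ± 0.73, SE; edgeR adjusted p = 0.0404). Without knockout 51 or knockout 63 its adjusted p was 0.0767 and 0.0809. Dll1, at 2.35 ± 0.70 on the log2 scale, missed the threshold (edgeR adjusted p = 0.0659). Dll1 passed in 6 of 12 alternatives, namely DESeq2 (0.00324), limma-voom (0.0347), no filter (0.0209), sex as a block (0.0171), without control 55 (0.00223) and without control 69 (0.0243). Jag1 was under 0.5 CPM in all libraries. Of the 3 tested ubiquitin ligases that act on ligands, 0 passed (median 0.04), and Mib2 stood at 36.7 to 39.7 CPM in all 4 libraries. Of the 6 enzymes that put sugars on the receptors, 0 passed (median 0.011), and Mfng, a fringe enzyme, was at 62.8 and 108 CPM in the controls and at 75.8 and 67.9 CPM in the knockouts. Lfng, another fringe enzyme, was at 27.3 and 75.0 CPM in the controls against 98.7 and 50.9 CPM in the knockouts. It passed with sex as a block (adjusted p = 0.0306) and without control 69 (0.0287, log2 fold change 1.46).

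Of the 9 other proteases and gamma-secretase subunits, 2 rose and 2 fell, with a median of 0.29. Psen2, a catalytic subunit, fell from 57.1 and 54.2 CPM in the controls to 26.7 and 20.8 CPM in the knockouts (log2 fold change -1.23 ± 0.19, SE; edgeR adjusted p = 0.0147). Among the scaffold subunits, Aph1b fell (-1.52 ± 0.24) while Aph1c (1.74 ± 0.35) and Aph1a (0.64 ± 0.17) rose. Aph1b and Aph1c are close paralogs, so reads may be split between them and their values are uncertain. Aph1b stayed at log2 fold changes between -1.58 and -1.42 in the alternatives, but calls were lost with fewer libraries. Without knockout 63 the adjusted p was 0.0618 for Psen2, 0.0566 for Aph1b, 0.0790 for Aph1c and 0.194 for Aph1a, and without knockout 51 it was 0.0586, 0.0930 and 0.183 for the last 3. Aph1a was also lost without control 55 (0.0835) and without scaling (0.0540).

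In the nucleus, 2 of 8 coactivators fell and 0 rose (median -0.36). Maml1, the Mastermind protein that completes the complex of Notch and RBPJ, was at 94.7 and 120 CPM in the controls against 66.5 and 57.4 CPM in the knockouts (log2 fold change -0.79 ± 0.17, SE; edgeR adjusted p = 0.0310). Kat2b, an acetyltransferase, fell by 0.78 on the log2 scale. Without knockout 51 or 63 neither passed (adjusted p-values of 0.0778 to 0.171). Of 7 RBPJ corepressors, 0 passed (median -0.29), and Ncor1 had a log2 fold change of -0.29 ± 0.15. Of 11 genes of receptor sorting and turnover, 2 rose and 1 fell (median 0.17). Dtx4 and Dtx2, relatives of Dtx1 in the Deltex family, rose with log2 fold changes of 1.61 ± 0.20 and 0.93 ± 0.16, the opposite direction to Dtx1. Dtx4 was at 10.7 and 9.02 CPM in the controls against 29.4 and 31.1 CPM in the knockouts. Dtx2 did not pass without knockout 51 (edgeR adjusted p = 0.0599) or knockout 63 (0.0953). Numb, an endocytic adaptor that antagonises Notch, fell by 0.71 on the log2 scale with an edgeR adjusted p of 0.0472 and did not pass with any library left out (0.0649 to 0.219).

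**Figure D5:**
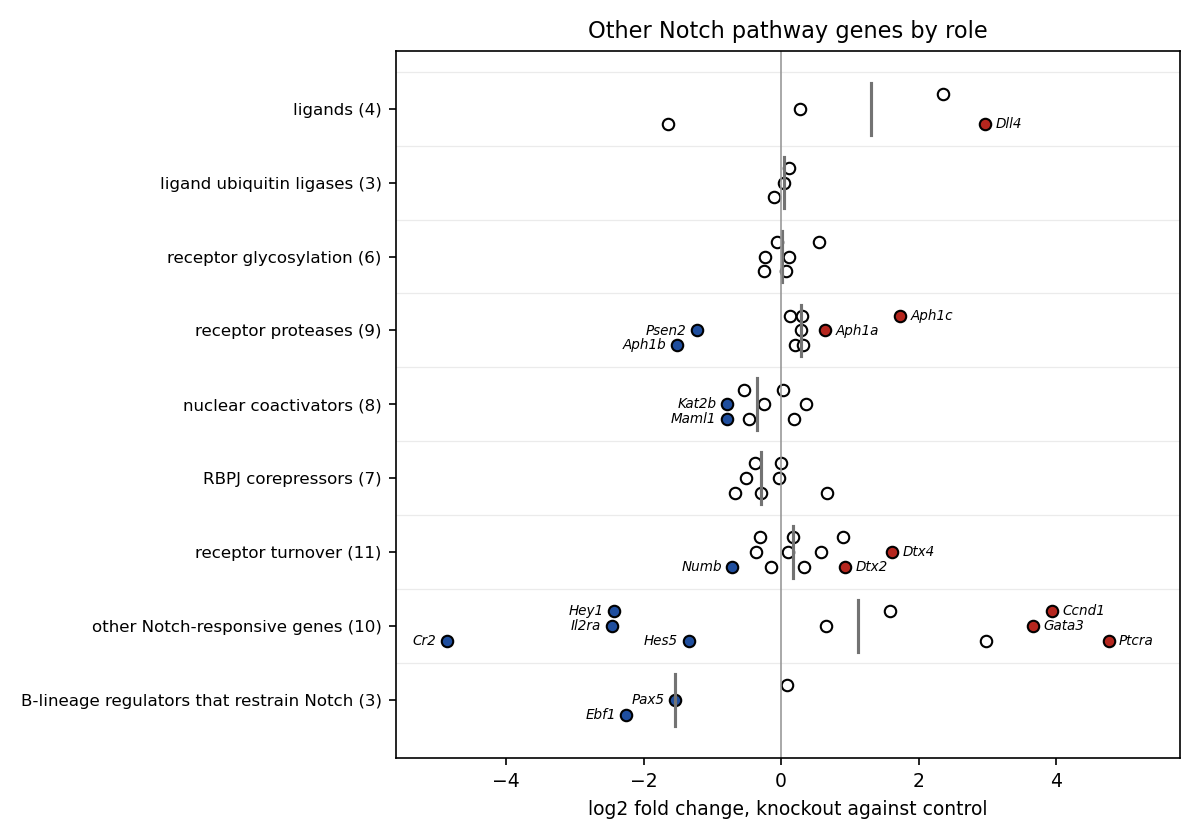
Log2 fold change of knockout against control for 61 further tested genes of the pathway, grouped by role with the number tested in parentheses. Filled and named points passed an adjusted p of 0.05 (red higher, blue lower), grey bars are list medians, and the genes that respond to Notch reach furthest in both directions.

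Of 10 other tested genes known to respond to Notch, 3 rose and 4 fell, with a median of 1.12 that turned to -1.30 with limma on the authors' normalized values. The 2 that belong to the same family as Hes1 and Heyl both fell. Hes5 was at 7.09 and 11.05 CPM in the controls against 3.67 and 3.45 CPM in the knockouts, and Hey1 at 1.47 and 0.864 CPM against 0.198 and 0.232 CPM. Their log2 fold changes were -1.35 ± 0.34 and -2.43 ± 0.60 (SE), with edgeR adjusted p-values of 0.0441 and 0.0409 that were lost without either knockout (0.130 to 0.167), without control 69 (0.120 and 0.0705) and with limma-voom (0.0520 and 0.0505). Hey1 was also lost without control 55 (0.231) and with limma on the normalized values (0.0506).

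Ptcra and Gata3 rose from very low levels, Ptcra further in knockout 63 (1.14 and 1.89 CPM in the knockouts) and Gata3 further in knockout 51. Ptcra, the pre-T cell receptor alpha chain gene, had 3 counts over both controls and 103 over both knockouts, a ratio of 28.9 (9.61 to 142, exact 95% interval for counting error), and did not pass without knockout 63 (edgeR adjusted p = 0.0945). Gata3, a T cell factor gene, went from 0.183 and 0.301 CPM in the controls to 4.56 and 1.59 CPM in the knockouts, and the call was lost without knockout 51 (edgeR adjusted p = 0.0848). Ccnd1, a G1 cyclin gene, rose from 45.3 and 12.03 CPM in the controls to 370 and 516 CPM in the knockouts (log2 fold change 3.95 ± 0.66, SE; edgeR adjusted p = 0.0165). Il2ra and Cr2, which fell, are genes of B-lineage cells. The first, the interleukin-2 receptor alpha chain gene expressed from the pre-B stage and in early T cells, fell from 146 and 50.1 CPM to 11.3 and 24.3 CPM, and Cr2, a complement receptor gene of later B cells, fell from 35.2 and 6.84 CPM to 0.347 and 1.13 CPM. Without knockout 51 their adjusted p-values were 0.107 and 0.0680, and Cr2 was also lost with limma-voom (0.0698). Among 3 regulators of the B lineage, Pax5, which represses Notch1 in committed B cells, was at 184 and 211 CPM in the controls against 80.8 and 54.2 CPM in the knockouts (log2 fold change -1.55 ± 0.22, SE; edgeR adjusted p = 0.0125). Ebf1 also fell, and Zbtb7a, which restrains Notch in marrow precursors, was at 0.08 ± 0.14.

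For each receptor, the genes most like it were looked for among 150 tested genes of the pathway and marker lists, by the Euclidean distance between log2 CPM over the 4 libraries, each gene centred on its own mean. Dtx4 and Dtx2 lay nearest to Notch1, at distances of 0.454 and 0.480. Klrd1, an NK receptor gene, and Ccnd1 lay nearest to Notch3 (0.479 and 0.488). Klrd1 was at 13.0 and 3.68 CPM in the controls against 114 and 155 CPM in the knockouts. Ncr1, another NK receptor gene, rose from 1.1 and 0.752 CPM to 63.4 and 7.20 CPM (edgeR adjusted p = 0.0299). Its knockouts lay in the opposite order. Notch3 ranked the 4 libraries in the same order as 9 of 14 dendritic cell markers, against 11.5% of all genes tested. Part of this match follows from genotype, since the order places both knockouts above both controls. So did 12 of these 14 markers and 4452 of all genes tested, and 1548 genes had the full order. Of 11 NK and innate lymphoid markers, 1 had that order, Klrd1 itself. Other genes shared their order with other lists. Notch1 had that of 6 of 13 T cell markers (8.40% of all genes tested). Heyl had that of 5 of 12 B-lineage markers (10.9% of all genes tested). The cell type behind any of these changes was not tested. Dtx2 and L3mbtl3 lay nearest to Notch2 (0.538 and 0.609), and Mib1 and Neurl1b, neither past the threshold, to Notch4 (0.261 and 0.266). With 4 libraries such distances only describe these samples.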

How the data were processed

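Per the labels' protocols, total RNA of sorted pro-B cells from 4 mice went into low-input libraries. Tools in the submitters' processing notes were Subread 2.0.0, featureCounts, DESeq2, STAR 2.7.4a, deepTools 3.3.2 and SAMtools 1.10, on builds mm10 and GRCm38. How the authors' counting handled strand, annotation and multiply aligned reads is not given in the sources used here. The authors deposited raw counts for 24411 gene symbols, and a normalized signal table that equals those counts times a factor for each library (0.816 to 1.22). In the latter, 20 of 13021 names matched no gene symbol, and it served in 1 alternative only.

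The fit used edgeR 4.0.16 in R 4.3.3: filterByExpr (minimum count 10, minimum total 15), TMM scaling, and glmQLFit with glmQLFTest on genotype alone, with Benjamini-Hochberg adjustment over 13507 genes at 0.05. The standard error is the log2 fold change divided by the square root of F. Replicate libraries differed beyond counting noise (mean chi-square of 87.2 per gene for controls and 63.7 for knockouts). The procedure was first tested on simulated data, drawn with the same relative spread for all genes. Of 50 genes at each size, it recovered 2% of 1.5-fold, 18% of 2-fold, 98% of 4-fold and 100% of 16-fold changes. Of its 116 calls, 7 fell on unchanged genes. Changes of 2-fold or less were thus mostly missed in that simulation. A result on 1 gene of the pathway lists is not reported here.

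The 10 genes, the lists and the tests were chosen with earlier results of these data known. By rule the text names the 10 genes, Tnpo3, up to 3 called genes per pathway list with the lowest adjusted p (else its most abundant gene) and the 2 genes nearest to each receptor. All other genes named, such as Hes5, Hey1, Ptcra, Il2ra, Aph1a, Dll1, Jag1, Zbtb7a and single markers, were picked after their values were seen, as was the later B cell list. Positions and exon lengths are from GENCODE M21 (GRCm38). Markers of eosinophils, basophils and mast cells (8 of 11 lower) and of erythroid cells and megakaryocytes (6 of 9 tested lower) were also measured. Alternatives were DESeq2 size factors, total counts without scaling, no filter, a filter at 1 CPM in 2 libraries with a mean of at least 50, DESeq2 1.42.0, limma-voom (limma 3.58.1), limma on log2 of the normalized signal plus 1, sex as a block, and leaving out each library, where the lone library of a genotype is assumed to vary like the others.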

Additional observations from a re-analysis of the deposited data

Results flagged for a closer look

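In 3 of the 10 genes the knockout differed from the control in opposite directions in the 2 sexes, each with 1 mouse per genotype, and these differences were not tested. For Hes1 the log2 ratio of knockout to control was 0.16 in the females and -1.48 in the males. For Nrarp it was -0.55 in the females and 0.15 in the males. For Notch4, with 29 to 37 counts per library, it was 0.26 and -0.35. In all 3 genes the groups overlapped, and none passed the threshold with sex as a block.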

How the results depend on the processing

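Notch1, Notch3, Heyl and Dtx1 kept their direction and passed in all 12 alternatives. Of all genes tested, 1524 rose and 1468 fell. With each library left out in turn 747 to 1649 rose and 530 to 1580 fell, the lowest counts without knockout 63. DESeq2 called 2062 and 1894. Of the 10 Notch genes, 2 to 3 rose and 2 to 3 fell with a library left out. Of the 61 further pathway genes, 3 to 14 rose and 3 to 10 fell with a library left out. In place of 8, 13 rose without a filter, 13 with DESeq2 and 15 with sex as a block. Sex as a block leaves 1 residual degree of freedom. Signs turned only in values that had not passed, or in list medians: with a library left out the log2 fold change ranged from -0.20 to 0.15 for Notch4, -0.91 to 0.44 for Nrarp, -0.0034 to 0.12 for Mib2, -0.55 to 0.20 for Mfng, -0.94 to 0.23 for Spib, -0.16 to 0.16 for Pecam1, -0.24 to 1.13 for Jag2, -0.0072 to 1.46 for Lfng and -1.44 to 0.13 for Igll1. Pecam1 was at 0.010 without a filter. The medians ranged from -0.27 to 0.20 for the 10 genes, -0.0034 to 0.065 for ligases acting on ligands and -0.088 to 0.088 for receptor glycosylation (-0.012 without scaling). The median of other Notch-responsive genes was -1.30 on the authors' normalized values, where fewer low genes were tested. The cause of the other changes was not tested. No paired analysis was possible because no mouse number occurs in both genotypes. Low counts (Notch4, Jag1, Hey1) and the spread between 2 mice per genotype both limit precision, and their shares were not separated.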
